A study of Mus musculus with 8 samples.

Results

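Resident macrophages of tissues are recognised or sustained by the products of the 10 genes described here: Csf1r, Csf1, Il34, Adgre1, Mrc1, Cd163, Lyve1, Folr2, Timd4 and Mertk. They were chosen by symbol from the 22880 gene identifiers counted, and all 10 passed the filter on low counts that left 14001 genes for testing. RNA was sequenced from soleus muscles of 4 control mice (Dnm2 +/+) and 4 Dnm2 +/K562E mice, 1 library per mouse, all male, 2 months old and on the C57BL/6 background. The K562E allele is a point mutation in the endogenous Dnm2 locus, which encodes the membrane-severing GTPase dynamin 2. It is heterozygous in every cell of the mutant mice, so macrophages and muscle fibres carry it alike, and a loxP site remains in an intron of the mutant allele. The comparison asks how the expression of these genes in whole soleus differed between mutant and control mice.

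As background, resident macrophages of muscle lie between fibres and along vessels, where they take up debris and dying cells. They depend on the receptor tyrosine kinase CSF1R, whose ligands are CSF1 and IL-34. Scavenger and endocytic receptors such as CD163, the mannose receptor (Mrc1), LYVE1 and the folate receptor FOLR2 are commonly used to tell long-lived resident macrophages from cells recently derived from monocytes, and the phosphatidylserine receptor TIM-4 (Timd4) marks a self-renewing fraction in many tissues.

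Values are CPM, read counts relative to library size, after scaling by TMM factors (a correction for differences in library composition) unless stated otherwise. Differences were tested by the quasi-likelihood F-test of edgeR, and a gene was called higher or lower where its p, adjusted by Benjamini-Hochberg over the 14001 tested genes, was below 0.05 and its log2 fold change reached 0.58 in that direction. Libraries held between 33407430 and 48832814 counts. Dnm2 was at 66.3 ± 4.74 CPM in controls and 73.4 ± 2.43 CPM in Dnm2 +/K562E mice (SD, n = 4 each), and counts per gene do not separate the mutant from the wild-type allele, so its level is no check of the genotype labels. Control mouse 4 stood apart from the other 3 controls. Its Myh4, the fast 2B myosin heavy chain, was at 3134 CPM against 163 to 426, its summed level of 5 mast cell genes was 41.3 CPM against at most 18.9, and its summed level of 14 general macrophage and myeloid genes was 352.4 CPM against at most 194.8. It was also the highest control for 9 of the 10 resident macrophage genes, all except Mertk. Where leaving out this mouse changed a call among the 10 genes, the value without it is also given. Among the mutants, mouse 4 was the lowest for 7 of the 10 genes and mouse 1 the highest for 6.

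Of the 10 genes, 5 were called higher in Dnm2 +/K562E soleus (Csf1r, Csf1, Adgre1, Mrc1 and Lyve1), none was called lower, and 5 were not called (Il34, Cd163, Folr2, Timd4 and Mertk). Over all tested genes 12.9% were called higher and 7.85% lower. At an unadjusted p under 0.05, edgeR put 6 of the 10 genes higher and 0 lower. The share of all tested genes at this unadjusted threshold was not counted, and 12.9% and 7.85% are not its background. At an adjusted p under 0.05 without the fold change threshold, 3103 of all tested genes were higher and 3036 lower. DESeq2 and the exact test of edgeR called the same 5 genes higher and none lower. For Csf1r, Csf1, Adgre1 and Mrc1, all 4 mutant mice lay above all 4 controls, an arrangement seen for 20.6% of all tested genes. The median log2 fold change of the 10 genes was 0.71, and that of all tested genes was 0.01. Without control mouse 4, Cd163 and Folr2 were also called, which made 7 genes. The number was 4 without control mouse 2 or 3, or without Dnm2 +/K562E mouse 1 or 2. It was 6 without Dnm2 +/K562E mouse 4. The muscles were sequenced whole, and fewer or more macrophages cannot be told apart from less or more RNA of a gene per macrophage.

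**Figure D1:**
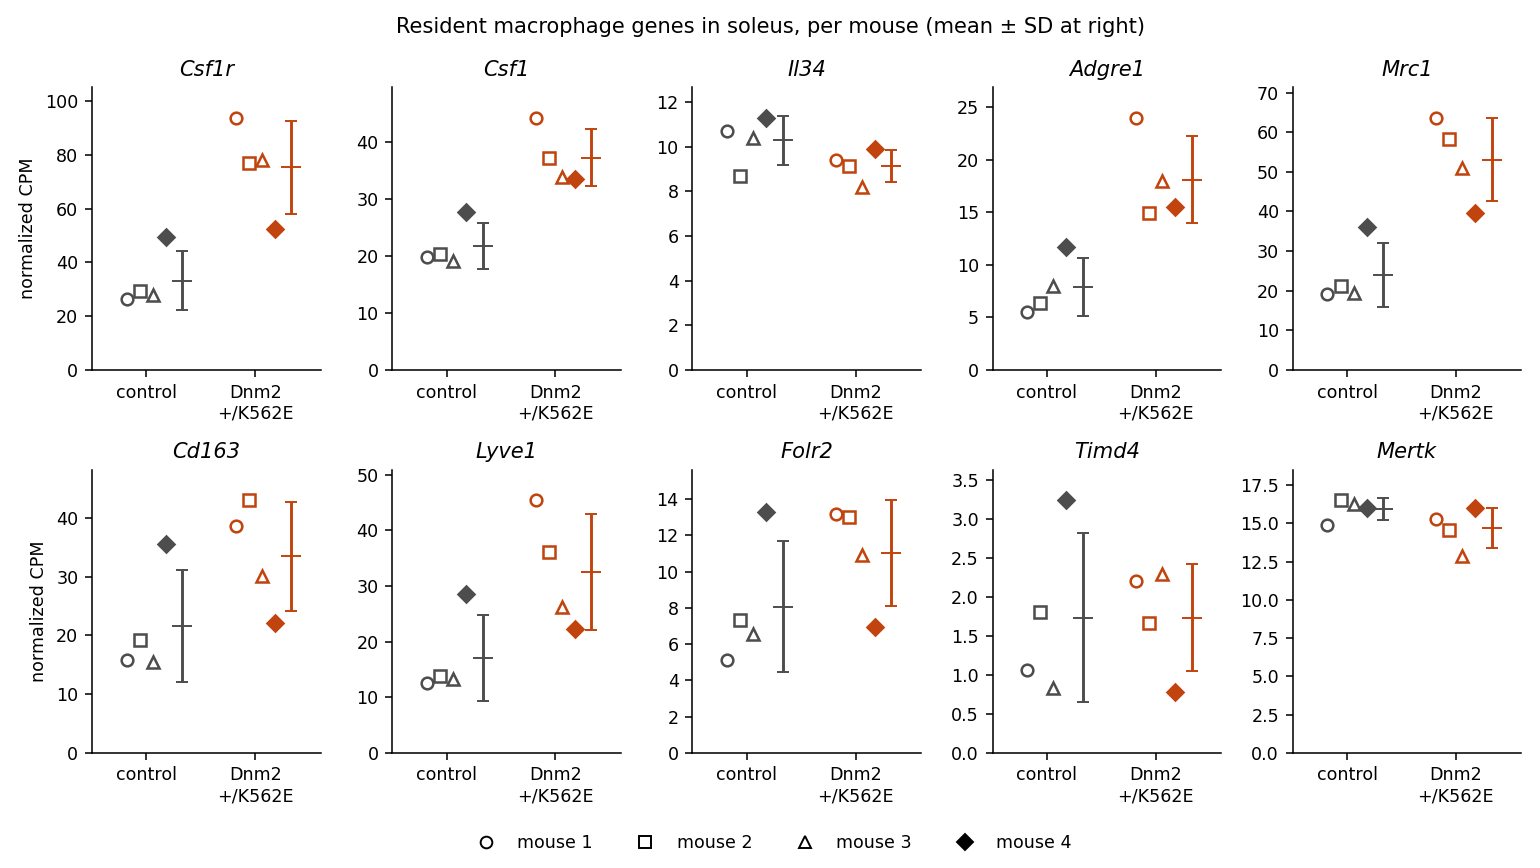
Normalized CPM of the 10 genes in each mouse, with 1 panel per gene, a linear axis from 0 in each, controls in grey and Dnm2 +/K562E mice in orange. Marker shapes give the mouse number in the sample titles (filled diamonds, mouse 4), and the bar at the right of each group is the mean ± SD of 4 mice. Control mouse 4 is the highest control in 9 of the 10 panels, and the genotypes are fully separated for Csf1r, Csf1, Adgre1 and Mrc1.

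Upstream sequences of these genes were read from a table of RefSeq start sites (GRCm38.p6), in which 6 of the 10 genes were matched: Csf1, Mrc1, Cd163, Folr2 (with 2 start sites), Timd4 and Mertk. Those of Csf1r, Il34, Adgre1 and Lyve1 were not analysed here. Motifs of the myeloid transcription factor PU.1, encoded by Spi1, were searched on both strands in the 250 bases before each start: the 7-letter PU.1 core AGGAAGT and the composite of GGAA, any 2 bases and GAAA, at which PU.1 can bind together with an IRF factor. The 2 motifs can overlap. The core was present before 7.69% of the 32851 start sites in the table and the composite before 2.3%. The 4 sequences shown are those of Mrc1, which was called higher and holds a core, of the first start site of Folr2 and of Timd4, which were not called and hold a composite, and of Csf1, which was called higher and holds neither. They run 5′ to 3′ on the strand of the gene and stop before the first annotated exon base of the gene, with the motifs in capitals. The motifs were chosen after the sequences had been seen, and a match of letters is a description, not a binding site.
Mrc1 (chr2:14229164-14229391, plus strand): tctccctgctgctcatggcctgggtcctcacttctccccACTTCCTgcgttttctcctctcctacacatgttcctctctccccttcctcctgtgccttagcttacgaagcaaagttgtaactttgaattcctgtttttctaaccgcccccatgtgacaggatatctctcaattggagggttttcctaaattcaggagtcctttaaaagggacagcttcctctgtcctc
Folr2, first start site (chr7:101857195-101857440, minus strand): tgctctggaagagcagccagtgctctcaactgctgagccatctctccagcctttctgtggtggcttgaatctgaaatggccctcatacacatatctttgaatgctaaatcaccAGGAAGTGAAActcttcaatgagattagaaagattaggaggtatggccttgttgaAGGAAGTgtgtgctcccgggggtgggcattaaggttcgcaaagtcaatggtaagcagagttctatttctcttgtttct
Timd4 (chr11:46810549-46810798, plus strand): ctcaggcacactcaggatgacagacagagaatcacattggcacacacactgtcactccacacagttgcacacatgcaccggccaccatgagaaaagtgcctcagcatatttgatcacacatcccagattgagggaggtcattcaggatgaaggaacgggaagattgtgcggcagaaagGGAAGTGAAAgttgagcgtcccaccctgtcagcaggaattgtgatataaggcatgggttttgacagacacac
Csf1 (chr3:107760470-107760719, minus strand): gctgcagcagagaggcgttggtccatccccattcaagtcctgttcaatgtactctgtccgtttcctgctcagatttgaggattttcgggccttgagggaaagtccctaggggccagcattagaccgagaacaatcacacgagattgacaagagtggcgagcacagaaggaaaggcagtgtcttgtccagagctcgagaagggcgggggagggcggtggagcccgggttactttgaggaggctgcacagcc
The core of Mrc1 lay on the minus strand relative to the gene, 211 bases before the start. Folr2 had cores 137 and 82 bases before its first start site, and the first of these overlapped its composite. The composite of Timd4 lay 72 bases before the start. Neither motif was found in these windows for Cd163, Mertk or the second start site of Folr2. A motif was thus present for 1 of the 2 genes called higher and for 2 of the 4 not called.

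Csf1r (ENSMUSG00000024621, chr18:61100598-61132149, plus strand, GRCm38), the receptor on which macrophage survival depends, was at 26.2, 29.4, 27.8 and 49.6 CPM in control mice 1 to 4 and at 93.8, 77.0, 78.0 and 52.3 CPM in Dnm2 +/K562E mice 1 to 4. The genotypes did not overlap, although control mouse 4 and mutant mouse 4 lay close together. The log2 fold change was 1.18 ± 0.22 (SE, 95% interval 0.70 to 1.66, adjusted p = 0.00129), a 2.26-fold higher level. Without control mouse 4 it was 1.43 (adjusted p = 8.95e-05), and without mutant mouse 1 it was 1.06 (adjusted p = 0.00497). Exons of Csf1r overlap those of Hmgxb3 on the opposite strand over 873 bases, 15.1% of the exon length of Csf1r, and reads there may have been counted for both genes. Hmgxb3 itself was at 24.1 ± 0.433 CPM in controls and 19.3 ± 0.626 CPM in mutants, the opposite direction.

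The ligands of CSF1R differed from each other in their values. Csf1 (ENSMUSG00000014599, chr3:107741048-107760469, minus strand), which encodes the ligand made by many stromal and endothelial cells, was at 19.8, 20.3, 19.2 and 27.8 CPM in controls and at 44.3, 37.2, 33.9 and 33.6 CPM in mutants. Every mutant lay above every control, and the log2 fold change was 0.78 ± 0.13 (SE, 95% interval 0.49 to 1.06, adjusted p = 0.000711). Il34 (ENSMUSG00000031750, chr8:110741829-110805924, minus strand), which encodes the ligand known from epidermis and brain, was at 10.7, 8.70, 10.4 and 11.3 CPM in controls and at 9.40, 9.11, 8.18 and 9.89 CPM in mutants. These ranges overlapped, and the log2 fold change of -0.17 ± 0.11 (SE, 95% interval -0.40 to 0.07, adjusted p = 0.225) lay inside the fold change threshold in both directions. Scaled by library size alone, which moved the median of all genes to 0.22, the value for Il34 was 0.04. Whether the 2 ligands differed in their response was not tested.

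Adgre1 (ENSMUSG00000004730, chr17:57358691-57483527, plus strand), which encodes F4/80, the adhesion receptor used to identify mouse macrophages in general, was at 5.51, 6.33, 8.0 and 11.7 CPM in controls and at 24.0, 14.9, 18.0 and 15.5 CPM in mutants. The lowest mutant lay above the highest control. The log2 fold change of 1.20 ± 0.23 (SE, 95% interval 0.70 to 1.69, adjusted p = 0.00151) was the highest of the 10 genes, and within the SE of those of Csf1r and Mrc1.

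Among the 4 endocytic and scavenger receptors, 2 were called higher. Mrc1 (ENSMUSG00000026712, chr2:14229392-14332057, plus strand), the mannose receptor CD206, was at 19.1, 21.3, 19.4 and 36.1 CPM in controls and at 63.7, 58.3, 50.9 and 39.5 CPM in mutants, without overlap. Its log2 fold change was 1.15 ± 0.21 (SE, 95% interval 0.69 to 1.61, adjusted p = 0.00123). It was 1.40 without control mouse 4 and 1.05 without mutant mouse 1. Lyve1 (ENSMUSG00000030787, chr7:110850607-110863239, minus strand), a hyaluronan receptor of perivascular macrophages that lymphatic endothelium also expresses, was at 12.5, 13.9, 13.3 and 28.6 CPM in controls and at 45.4, 36.1, 26.2 and 22.3 CPM in mutants. Control mouse 4 lay above 2 of the 4 mutants. The log2 fold change was 0.93 ± 0.29 (SE, 95% interval 0.30 to 1.56, adjusted p = 0.0217). The call was lost without control mouse 2 (adjusted p = 0.0621), control mouse 3 (0.0613), mutant mouse 1 (0.0713) or mutant mouse 2 (0.0519), and without control mouse 4 the log2 fold change was 1.29 (adjusted p = 0.000885).

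Cd163 (ENSMUSG00000008845, chr6:124304656-124330527, plus strand), the receptor for haptoglobin-haemoglobin complexes, was at 15.9, 19.3, 15.4 and 35.6 CPM in controls and at 38.7, 43.0, 30.1 and 22.1 CPM in mutants. The mutants lay above control mice 1 to 3, and control mouse 4 lay among the mutants. The log2 fold change of 0.64 ± 0.27 (SE, 95% interval 0.03 to 1.24) missed the adjusted threshold (adjusted p = 0.0808). It was 0.98 without control mouse 4 (adjusted p = 0.00316) and 0.79 without mutant mouse 4 (adjusted p = 0.0402). Folr2 (ENSMUSG00000032725, chr7:101839988-101857194, minus strand), the folate receptor of resident macrophages, was at 5.12, 7.31, 6.54 and 13.3 CPM in controls and at 13.2, 13, 10.9 and 6.92 CPM in mutants. Control mouse 4 lay just above every mutant, mutant mouse 4 lay among the other controls, and the log2 fold change was 0.45 ± 0.28 (SE, 95% interval -0.18 to 1.07, adjusted p = 0.224). Without control mouse 4 it was 0.79 (adjusted p = 0.0156). Of the 31-base stretches in Folr2 transcripts, 56.9% also occur in those of the antisense gene Gm10602, which was not among the counted identifiers.

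Neither receptor for dying cells was called by edgeR or DESeq2, and 0 of these 2 genes had an unadjusted p under 0.05. Timd4 (ENSMUSG00000055546, chr11:46810800-46844332, plus strand), which encodes the phosphatidylserine receptor TIM-4, was at 1.07, 1.81, 0.83 and 3.24 CPM in controls and at 2.20, 1.67, 2.29 and 0.784 CPM in mutants, from 29 to 110 counts per library. The ranges overlapped, the log2 fold change was 0.01 ± 0.44 (SE, 95% interval -0.96 to 0.98, adjusted p = 0.985), its sign turned when single mice were left out, and with this spread between mice the interval includes changes of almost 1 log2 unit in either direction. Mertk (ENSMUSG00000014361, chr2:128698956-128802894, plus strand), a receptor tyrosine kinase that recognises dying cells through bridging proteins, was at 14.9, 16.5, 16.3 and 16.0 CPM in controls and at 15.3, 14.6, 12.9 and 16.0 CPM in mutants. Its values were the least variable of the 10 genes among controls relative to the mean. The log2 fold change was -0.12 ± 0.09 (SE, 95% interval -0.31 to 0.07, adjusted p = 0.297), an interval inside the fold change threshold on both sides, and it was 0.09 when scaled by library size alone.

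**Figure D2:**
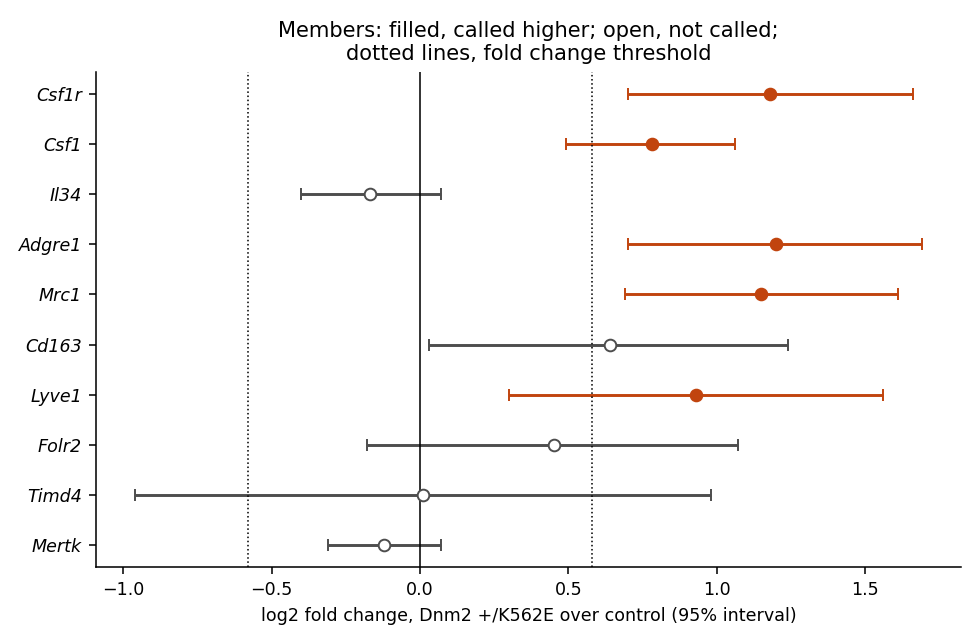
Log2 fold change of each of the 10 genes, Dnm2 +/K562E over control, with its 95% interval (n = 4 mice per genotype). Filled points were called higher and open points were not called. The points of Csf1r, Adgre1 and Mrc1 lie between 1.15 and 1.20, and the intervals of Il34 and Mertk lie inside the dotted lines of the fold change threshold.

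Levels of different genes were compared per kilobase of exon (RPKM). In controls the order of the means was Lyve1 (5.84 ± 2.65), Csf1r (5.76 ± 1.90), Il34 (5.24 ± 0.565), Folr2 (5.22 ± 2.34), Csf1 (4.12 ± 0.763), Cd163 (3.95 ± 1.74), Mrc1 (3.77 ± 1.28), Mertk (3.67 ± 0.171), Adgre1 (2.43 ± 0.847) and Timd4 (0.80 ± 0.499; SD, n = 4). The spread of neighbours in this order overlapped except between Mertk and Adgre1 and between Adgre1 and Timd4. The order depended on control mouse 4. Without it, Il34 stood first at 5.07 ± 0.551 RPKM (SD, n = 3), followed by Csf1r at 4.82 ± 0.276 and Lyve1 at 4.52 ± 0.244, whose spreads overlapped. In Dnm2 +/K562E mice Csf1r stood first at 13 ± 2.96 RPKM, followed by Lyve1 at 11.1 ± 3.55, Mrc1 at 8.33 ± 1.64, Folr2 at 7.12 ± 1.89, Csf1 at 7.05 ± 0.949, Cd163 at 6.13 ± 1.70 and Adgre1 at 5.58 ± 1.28. Il34, at 4.67 ± 0.367 RPKM, was the eighth in the order of mutants, above Mertk at 3.39 ± 0.309 and Timd4 at 0.799 ± 0.318. The spread of Il34 and Mertk and that of Mertk and Timd4 did not overlap in mutants.

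Each gene was also expressed relative to Adgre1 in the same mouse, as a description without a test, to show which members kept their proportion to a general macrophage receptor. The ratio of Csf1r to Adgre1 was 4.28 ± 0.58 in controls and 4.20 ± 0.752 in mutants, and that of Mrc1 was 3.09 ± 0.467 and 2.99 ± 0.625 (SD, n = 4), so both differed between genotypes by less than the spread between mice. For Lyve1 the ratio spanned 1.66 to 2.45 in controls against 1.44 to 2.42 in mutants. For Cd163 the ranges were 1.93 to 3.05 and 1.43 to 2.89, for Folr2 0.818 to 1.15 and 0.448 to 0.874, for Timd4 0.104 to 0.286 and 0.0507 to 0.127, and for Csf1 2.38 to 3.58 and 1.85 to 2.49. All of these ranges overlapped, with 3 of the 4 mutants below every control for Cd163, Folr2 and Csf1, and 2 for Lyve1 and Timd4. The ratios of Il34 (0.965 to 1.94 against 0.392 to 0.640) and Mertk (1.37 to 2.70 against 0.637 to 1.04) were lower in all mutants than in all controls. Since Adgre1 itself was called higher, a gene with a level near that of controls has a lower ratio by construction.

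**Figure D3:**
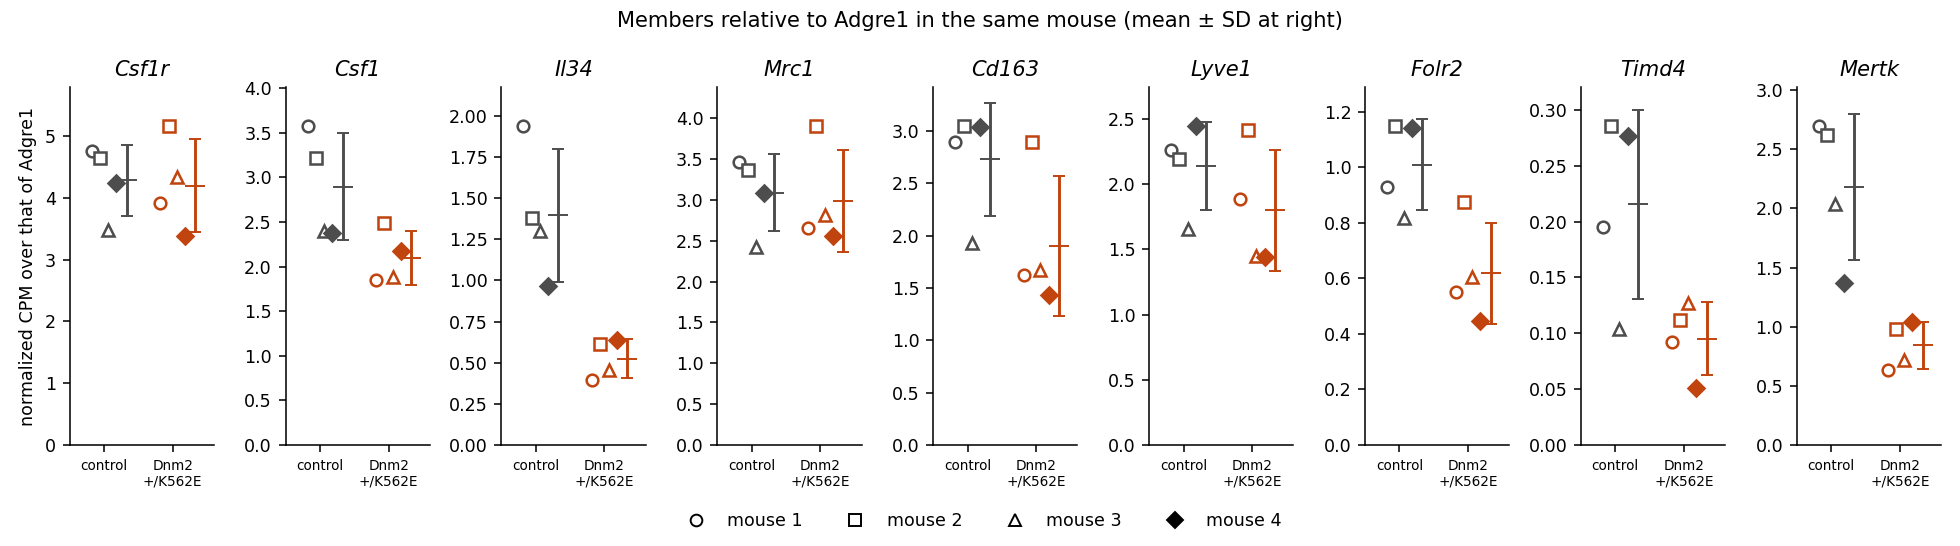
Normalized CPM of 9 genes divided by that of Adgre1 in the same mouse, on linear axes from 0. Grey marks are controls and orange marks Dnm2 +/K562E mice, marker shapes give the mouse number (filled diamonds, mouse 4), and bars show mean ± SD of 4 mice. Csf1r and Mrc1 have similar ratios in both genotypes, and the genotypes are separated for Il34 and Mertk.

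Related gene lists were described by counts and medians beside those of all tested genes (median 0.01, 12.9% called higher, 7.85% lower). Of 14 general macrophage and myeloid genes, 13 were called higher and none lower. The median was 1.20, and Aif1 was not called. Their summed level was 192.4 to 352.4 CPM in controls and 477.8 to 757.1 CPM in mutants. Cd68, a lysosomal glycoprotein of macrophages, rose by a log2 fold change of 1.77 ± 0.24 (SE, adjusted p = 0.000154), Lyz2, which encodes lysozyme, by 1.51 ± 0.20 (adjusted p = 0.000144), the lysosomal protease gene Ctss by 1.66 ± 0.22 (adjusted p = 0.000142) and the galectin-3 gene Lgals3 by 2.10 ± 0.28 (adjusted p = 0.000155). Of 14 further genes reported in resident macrophages, 5 were called higher and none lower, with a median of 0.45 and a range from -1.01 (Cd209d) to 1.90 (Vsig4). The complement receptor gene Vsig4 was at 0.328 to 1.03 CPM in controls and 1.51 to 3.11 CPM in mutants, and the fractalkine receptor gene Cx3cr1 at 1.13 to 2.68 and 4.97 to 8.35 CPM. F13a1 (log2 fold change 0.90, adjusted p = 0.013) and Ms4a7 (1.5, adjusted p = 0.00281) rose as well, as did Pf4 (0.97, adjusted p = 0.0135). Without control mouse 4, 8 of these 14 genes were called higher.

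Of 15 genes acting with or downstream of CSF1R, 7 were called higher and none lower, with a median of 0.52. Trem2, a lipid-sensing receptor, was at 0.291 to 1.15 CPM in controls and 3.08 to 5.49 CPM in mutants (log2 fold change 2.46 ± 0.38, SE, adjusted p = 0.000413), and its signalling adaptor Tyrobp rose by 1.38 ± 0.25 (adjusted p = 0.00121). The kinase gene Src rose by 0.99 ± 0.11 (adjusted p = 6.06e-05), while its relative Fyn differed by 0.41 and Grb2, the adaptor that links receptor kinases to Ras, by 0.26, both under the fold change threshold. Of 10 transcription factors of macrophages, 3 were called higher and 2 lower. Spi1, which encodes PU.1, was at 1.25 to 3.95 CPM in controls and 5.19 to 7.41 CPM in mutants (1.49 ± 0.28, SE, adjusted p = 0.00163), and Runx1, which muscle fibres also express after denervation, rose by 2.04 ± 0.15 (adjusted p = 3.22e-06). The liver X receptor gene Nr1h3 was among those that fell (-0.68 ± 0.09, adjusted p = 0.000168), from 16.8 to 20.2 CPM in controls to 9.99 to 12.1 CPM in mutants. With scaling by library size alone its value was -0.47, short of the fold change threshold. Which cells of the muscle held this RNA was not tested. Of the relatives and ligands of Mertk, Axl (93.3 to 123.8 CPM in controls, 186.8 to 232.4 CPM in mutants) and Tyro3 (1.2 to 2.15 and 3.64 to 6.58 CPM) were called higher, with log2 fold changes of 1.07 ± 0.10 (SE, adjusted p = 1.39e-05) and 1.67 ± 0.24 (adjusted p = 0.000242). The bridging ligand gene Pros1 differed by 0.57, just under the fold change threshold, and Gas6 by -0.14.

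**Figure D4:**
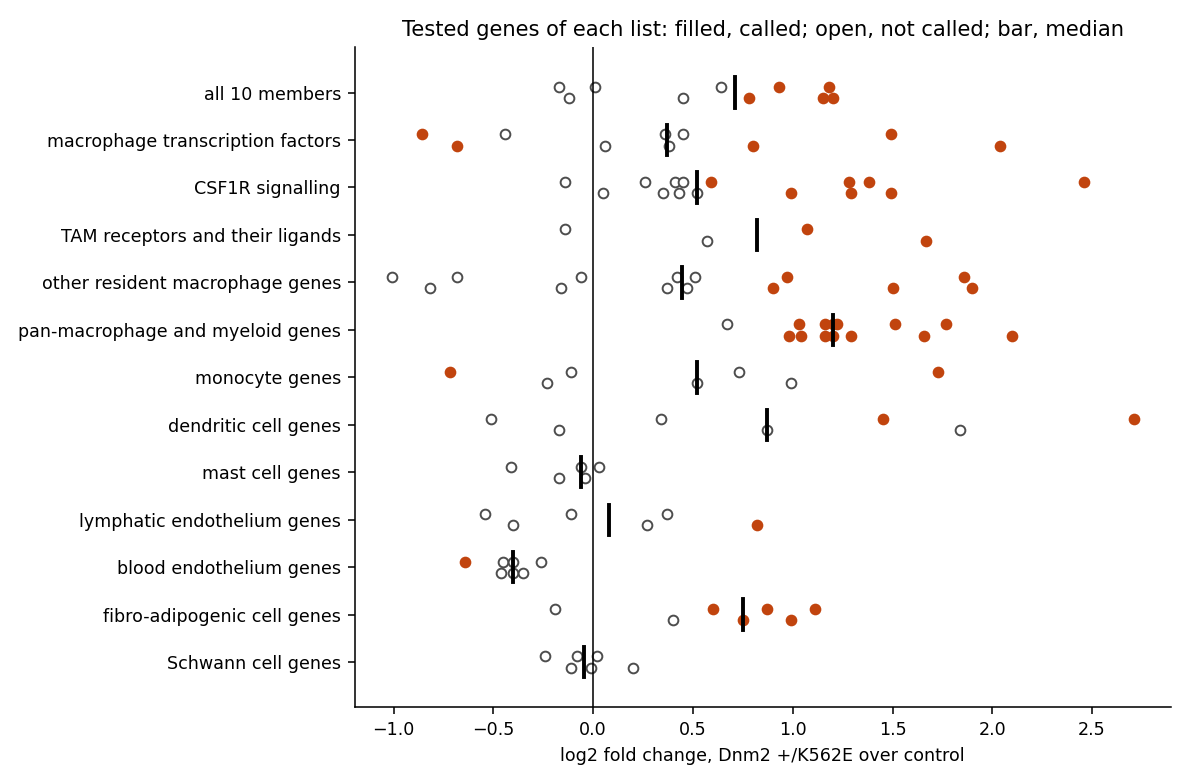
Log2 fold changes, Dnm2 +/K562E over control, of the tested genes of each list, with called genes filled, other genes open and the median as a vertical bar. The 10 resident macrophage genes have a median of 0.71, the general macrophage and myeloid genes 1.20, the fibro-adipogenic cell genes 0.75, the mast cell genes -0.06 and the blood endothelium genes -0.40.

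Markers of other cells that whole soleus may hold were counted in the same way, and their part in the values of the 10 genes was not tested. Of 7 tested monocyte genes, Ccr2, the chemokine receptor of classical monocytes, was higher (3.94 to 10.5 CPM in controls, 11.2 to 30.9 CPM in mutants). Nr4a1 was lower (65.1 to 74.7 CPM in controls, 21.7 to 50.8 CPM in mutants, log2 fold change -0.72, adjusted p = 0.0184). Mutant mouse 2 held the lowest value of Nr4a1. The call of Nr4a1 was lost without this mouse (-0.50) and with scaling by library size alone (-0.51, adjusted p = 0.0625). Of 7 tested dendritic cell genes, Itgax, which encodes CD11c and is also expressed by macrophages, was higher (0.493 to 1.04 CPM in controls, 3.94 to 6.65 CPM in mutants), and Flt3 passed narrowly (adjusted p = 0.0473). Zbtb46 differed in the other direction, by -0.51 (adjusted p = 0.0314), under the fold change threshold. At an unadjusted p under 0.05, 4 genes of this list were higher and 1 lower. The number of dendritic cell genes called higher rested on single mice: it was 5 without control mouse 4, 1 without any one of control mice 1 to 3 or mutant mice 1 and 3, and 4 with DESeq2. Of 8 neutrophil genes 2 could be tested and neither was called, with Csf3r at a log2 fold change of 1.04 (adjusted p = 0.0665), and Ly6g had 0 counts in every mouse, which allows up to 0.0894 CPM in the smallest library. Csf3r was the neutrophil gene with an unadjusted p under 0.05 and was called by the exact test of edgeR, and DESeq2, which tested more genes of low count, called it together with S100a8. Of 9 lymphocyte genes only Cd4, which some macrophages also express, could be tested, and it was not called (adjusted p = 0.0861), while DESeq2 called Cd79a, a B cell gene at 0.655 CPM or less in every mouse, lower. None of 5 mast cell genes was called by edgeR or DESeq2, and 0 had an unadjusted p under 0.05, with summed levels of 11.3 to 41.3 CPM in controls and 6.97 to 28.3 CPM in mutants. Of 6 lymphatic endothelium genes, which bear on Lyve1, Pdpn was called higher (0.82, adjusted p = 0.000518), a gene that fibroblasts also express. Prox1, a transcription factor, and Flt4, a receptor, are used as markers of lymphatic endothelium. They differed by -0.54 (adjusted p = 0.00236) and -0.40 (adjusted p = 0.00569). Both lay under the fold change threshold. Mmrn1 (0.37), Sema3a (0.27) and Reln (-0.11), also of this list, were not called, and the median of the list was 0.08. Its summed level was 90.0 to 106.1 CPM in controls and 79.6 to 101 CPM in mutants.

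Stromal and muscle markers also differed between the genotypes. Of 7 fibro-adipogenic cell genes, 5 were called higher, with a summed level of 1021.3 to 1424.2 CPM in controls and 1807.5 to 2329.4 CPM in mutants. Among them were Pdgfra (log2 fold change 1.11, adjusted p = 5.54e-05), Dcn (0.99, adjusted p = 9.69e-05), Cd34 (0.60, adjusted p = 0.000198) and Pi16 (0.87, adjusted p = 0.00286). The count was 3 without control mouse 2, control mouse 3, mutant mouse 2 or mutant mouse 3. Cd34 was among the genes that lost their call there, short of the fold change threshold (0.55 to 0.58 after rounding). Ly6a, of the same list, differed in the other direction, by -0.19 (adjusted p = 0.0332), under the fold change threshold. Of 7 blood endothelium genes, all 7 were lower at an adjusted p under 0.05. Only Kdr also passed the fold change threshold and was called (-0.64, adjusted p = 0.000123). Their summed level was 1074.6 to 1143.6 CPM in controls and 766.2 to 861.1 CPM in mutants. Of 8 muscle fibre genes, Myh2 (-0.62), Myh4 (-4.63) and Ckm (-1.02) were called lower. The value of Myh4 was -2.96 without control mouse 4, and it was still called. The list summed to 65954.8 to 73950.5 CPM in controls and 45996.4 to 50101.6 CPM in mutants. No Schwann cell gene of 6 was called by edgeR or DESeq2, and 1 was higher and 1 lower at an unadjusted p under 0.05, among them Mbp at -0.24 (adjusted p = 0.0141), under the fold change threshold. Of 4 keratinocyte genes, Krt5 and Krt1 had 0 counts in every mouse, and Krt10, the gene tested, was not called (-0.12, adjusted p = 0.65). The summed muscle fibre level identifies the samples as striated muscle in both genotypes.

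Variation between mice of the same genotype was described by correlating log2 CPM over the 8 mice after the genotype mean had been removed, against 12634 genes with a mean of at least 1 CPM. The genes most like Csf1r were Lyz2 (r = 0.983), Pf4 (0.980), Mrc1 (0.979), the complement gene C1qc (0.975) and Podn (0.974). Those most like Lyve1 were Anln (0.988), Sema4a (0.985), Pf4 (0.984), C1qa (0.980) and Zfp420 (0.978). Among the other members, r with Csf1r was 0.828 to 0.979 for Csf1, Adgre1, Mrc1, Cd163, Lyve1, Folr2 and Timd4, 0.115 for Il34 and -0.153 for Mertk. The 8 points share their libraries, control mouse 4 lies far from the rest, and the ranking was not stable: of the 5 genes named for Csf1r, 0 to 3 stayed among the 5 most alike when single mice were left out, and of those for Lyve1, 1 to 3.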

How the data were processed

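RNA of soleus muscle from 8 mice was measured in 1 library each. The authors trimmed reads (Trimmomatic 0.33), aligned them to GRCm38.p5 with STAR 2.5.1b and Ensembl annotation, and deposited raw featureCounts counts per gene, without poorly mapped alignments. Reads over several genes were counted once per gene. The strand setting is not given in the sources used here. The labels name a stranded total RNA kit, the methods a poly A-enriched library, and the effect on the counts is unknown.

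Of 22880 identifiers, 22570 were matched to symbols of GENCODE M21 (GRCm38). Genes were filtered with filterByExpr (minimum count 10, minimum total 15), scaled by TMM and tested with the quasi-likelihood F-test of edgeR 4.0.16 in R 4.3.3 between 4 control and 4 Dnm2 +/K562E mice, with SE taken as the log2 fold change divided by the square root of F. The fit was tested on simulated data. RPKM used merged exon lengths. Total counts of 33407430 to 48832814 gave the 10 genes 29 to 3453 counts per library. The alternatives tried included DESeq2 1.42.0, edgeR's exact test, other scalings and filters, replicate blocks and the omission of single mice. The members and lists were chosen with earlier results of these data known. Named genes were the members, Dnm2, up to 4 called genes per list with the smallest p (or 1 where none was called), listed genes without counts, and the 5 genes most like Csf1r and Lyve1. Values of 2 genes that this rule names are not reported here. Other listed genes and Hmgxb3 were named after their values were seen.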

Additional observations from a re-analysis of the deposited data

Results flagged for a closer look

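In groups of 4 mice, a highest or lowest value was marked where its gap to the nearest mouse, divided by the range of the group, was above Dixon's critical value, a test that marks about 1 in 20 groups by chance. Among the controls it marked mouse 4 for Csf1r (49.6 CPM), Csf1 (27.8 CPM), Mrc1 (36.1 CPM) and Lyve1 (28.6 CPM), each the highest control. These are 4 genes of 1 library and not separate events. It also marked control mouse 3 for Dnm2, at 59.2 CPM the lowest control.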

How the results depend on the processing

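Csf1r, Csf1, Adgre1 and Mrc1 were called higher under every alternative run, with log2 fold changes of 1.06 to 1.43, 0.68 to 0.99, 1.03 to 1.44 and 1.05 to 1.40. The number of the 10 genes called ranged from 4 to 7 when single mice were left out, and was 6 with scaling by library size alone, where Cd163 was added (0.85, adjusted p = 0.034). Over all genes, 1806 were higher and 1099 lower, against 2865 and 564 with library size alone, where the median gene shifted to 0.22, and 3103 and 3036 without the fold change threshold. Leaving out single mice gave 1588 to 1970 higher and 1026 to 1208 lower. Of the genes in the other lists, 39 were higher and 7 lower, and 3 were lower with library size alone, 21 without the fold change threshold and 5 to 11 without single mice (11 without control mouse 1). Signs reversed with library size alone for Il34 (0.04), Mertk (0.09), Krt10 (0.09) and Zfp420 (0.04), without control mouse 4 for Mcpt4 (0.27, with a range of -0.70 to 0.27 over single mice), and without single mice for Timd4 (-0.23 to 0.49). None of these was called. The number of the 5 genes most like Csf1r that stayed was 0 to 3 without single mice. Csf3r was called with the exact test (adjusted p = 0.0381), with DESeq2 (0.0388), with library size alone (0.0296), without control mouse 1 (0.0276) and without mutant mouse 2 (0.0251), and Flt3 lost its call in 10 alternatives. Over the named genes, ratios to Adgre1 and single lists, 1462 of 1572 alternative values were classed as the same. For a gene this meant the same direction and side of the threshold. For a list count or a ratio it meant a shift within a set limit, so such a count could still gain or lose a gene. Of the others, 25 lost a call, 14 gained one, 9 changed sign and 62 counts or values without a test moved beyond the limit.

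Same-numbered mice of both genotypes did not deviate together (mean correlation -0.11 by the title numbers and -0.03 by the description numbers), and the numbers share no stated litter or day. A replicate block by title number gave 1637 higher and 1036 lower genes and by description number 1739 and 1083, with 5 of the 10 genes higher in both. By title number the adjusted p of Lyve1 was 0.0493 and F13a1 was no longer called (0.0526). Timd4 had the lowest counts of the 10 genes (29 to 110), and 4 mice per genotype limit the precision of all values.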
